A study of Mus musculus with 14 samples.

Results

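The 9 genes described here belong to the corticosteroid system of the hippocampus. They are the 2 receptor genes Nr3c1 and Nr3c2, the enzyme gene Hsd11b1, and 6 genes known to respond to glucocorticoids: Fkbp5, Sgk1, Tsc22d3, Zbtb16, Pdk4 and Cdkn1a. They were chosen by gene symbol and not by a threshold on their values, with earlier results of these data known. Of 18722 genes with a value in at least 1 library, these are 9, and each of the 9 had a value in all 14 libraries, so all were among the 16569 genes tested. RNA was sequenced from the hippocampus of C57BL6 mice, labelled as 30 days old. Mutant mice carried 1 disrupted copy of Kmt2d (KMT2D+/bGeo), a histone H3 lysine 4 methyltransferase, and wild-type mice were KMT2D+/+. Every mouse was gavaged for 2 weeks from 2 weeks of age, either with TAK-418 at 1 mg/kg/day in methylcellulose or with methylcellulose alone. TAK-418 inhibits LSD1, the demethylase encoded by Kdm1a. The wild types gave 3 libraries with vehicle and 5 with TAK-418, and the mutants gave 3 with each. The series text gives 3 to 4 mice per group, so how the 5 wild-type libraries with TAK-418 relate to mice is not known, and an n counts libraries. The mutation is present in all cells of the animal, and whole hippocampus mixes neurons, glia and vessels.

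Glucocorticoids enter cells and bind 2 related receptors. The mineralocorticoid receptor (Nr3c2) has the higher affinity and is occupied at low hormone levels, and the glucocorticoid receptor (Nr3c1) is filled mainly at the daily peak and under stress. The hippocampus is known for expressing both. The enzyme 11β-hydroxysteroid dehydrogenase type 1 (Hsd11b1) regenerates active corticosterone inside cells, and the bound receptors switch on genes such as Fkbp5, whose product lowers the hormone affinity of the glucocorticoid receptor in a feedback loop.

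Levels are given as scaled abundance, the deposited abundance per library after scaling. The values behave as amounts corrected for transcript length and library depth, like FPKM, so that genes can be compared, although no label names the unit. Relative depth, inferred from the spacing of the deposited values, ranged from 35.01 M to 59.8 M fragments over 13 libraries. The highest inferred depth, in replicate 1 of the treated wild types, was 168 M. The choroid plexus gene Ttr was over 10 times its median in 4 libraries, wild-type vehicle replicate 3 (6369), mutant vehicle replicates 1 (4906) and 3 (884) and mutant TAK-418 replicate 1 (590). In wild-type TAK-418 replicates 1, 2, 4 and 5 the values fell on whole steps for 94.1% to 97.8% of the transcripts checked, against 99.0% to 99.6% in the other 10 libraries. The labels name 2 library kits without saying which library used which. The summed level of 5 hippocampal excitatory neuron markers lay between 1926 and 2236 in all 14 libraries. From Xist and 4 Y-linked genes, 6 libraries were female and 8 male, with both sexes in each group. Kmt2d itself averaged 13.99 ± 0.234 (SD, n = 3) with vehicle and 15.2 ± 2.37 (SD, n = 5) with TAK-418 in wild types, and 11.9 ± 2.14 (SD, n = 3) with vehicle and 12.4 ± 2.73 (SD, n = 3) with TAK-418 in mutants, and the ranges of the genotypes overlapped.

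The 2 receptor genes varied little. On build mm10, with coordinates from GENCODE M21, Nr3c2 (ENSMUSG00000031618.13; chromosome 8, 76899442 to 77245012, plus strand) stood at 50.7, 56.3 and 61.6 in wild types on vehicle, 50.7, 57.5 and 66.5 in mutants on vehicle, 62.5, 61.3, 56.0, 62.2 and 57.4 in wild types on TAK-418, and 59.2, 55.9 and 62.3 in mutants on TAK-418. Nr3c1 (ENSMUSG00000024431.15; chromosome 18, 39410545 to 39519421, minus strand) stood at 17.8, 19.8 and 18.5 in wild types on vehicle, 17.1, 19.8 and 21.4 in mutants on vehicle, 20.2, 18.7, 17.6, 19.4 and 18.9 in wild types on TAK-418, and 17.9, 17.1 and 19.1 in mutants on TAK-418. The 4 groups overlapped for both genes, and the highest library was 1.31 times the lowest for Nr3c2 and 1.25 times for Nr3c1. The mineralocorticoid receptor transcript was the more abundant in every library, at 2.84 to 3.33 times the level of the glucocorticoid receptor transcript. That ratio averaged 3.00 ± 0.281 (SD, n = 3) with vehicle and 3.16 ± 0.0982 (SD, n = 5) with TAK-418 in wild types, and 2.99 ± 0.102 (SD, n = 3) with vehicle and 3.27 ± 0.0227 (SD, n = 3) with TAK-418 in mutants. In none of the 5 comparisons described next did either receptor gene have an unadjusted limma p under 0.05, and the differences lay between -0.11 and 0.09 on the log2 scale.

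The enzyme gene was expressed at about the level of Fkbp5. Hsd11b1 (ENSMUSG00000016194.14; chromosome 1, 193221634 to 193264075, minus strand) stood at 32.3, 33.0 and 29.3 in wild types on vehicle, 31.7, 34.3 and 30.8 in mutants on vehicle, 30.8, 32.0, 26.9, 33.6 and 29.2 in wild types on TAK-418, and 32.7, 30.8 and 33.3 in mutants on TAK-418. The groups overlapped, and the differences between them ran from -0.05 to 0.08 on the log2 scale. Hsd11b2, which encodes the enzyme that inactivates corticosterone, and Serpina6, which encodes the corticosteroid binding globulin of plasma, were listed at 0 in all 14 libraries.

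Among the response genes, Tsc22d3 was the most abundant. Its product GILZ is a leucine zipper protein that mediates anti-inflammatory actions of glucocorticoids. Tsc22d3 (ENSMUSG00000031431.13; chromosome X, 140539528 to 140600659, minus strand) stood at 60.04, 59.0 and 46.9 in wild types on vehicle, 58.0, 55.9 and 51.8 in mutants on vehicle, 56.0, 50.7, 55.5, 52.6 and 58.6 in wild types on TAK-418, and 51.2, 50.4 and 50.8 in mutants on TAK-418. Only in the comparison of mutant TAK-418 with mutant vehicle libraries did 2 groups not overlap. The lowest value of all was wild-type vehicle replicate 3, the library with the highest Ttr.

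Sgk1 came next. It encodes a serine/threonine kinase of ion transport and cell survival and is expressed in neurons and oligodendrocytes. Sgk1 (ENSMUSG00000019970.15; chromosome 10, 21882184 to 21999903, plus strand) stood at 40.2, 51.1 and 43.9 in wild types on vehicle, 48.0, 36.6 and 46.5 in mutants on vehicle, 41.4, 36.7, 32.1, 30.9 and 37.4 in wild types on TAK-418, and 36.4, 37.2 and 36.1 in mutants on TAK-418. The vehicle libraries were on the whole the higher, with mutant vehicle replicate 2 at the level of the treated mutants.

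Fkbp5 encodes a cochaperone of the receptor. Fkbp5 (ENSMUSG00000024222.17; chromosome 17, 28399094 to 28517527, minus strand) stood at 31.6, 24.8 and 22.4 in wild types on vehicle, 33.5, 35.6 and 29.9 in mutants on vehicle, 30.2, 29.2, 30.5, 32.2 and 30.3 in wild types on TAK-418, and 32.3, 31.3 and 31.4 in mutants on TAK-418. Replicates 2 and 3 of the wild-type vehicle group were the 2 lowest of the 14, and replicate 1 of that group lay inside the range of the other groups.

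Zbtb16 encodes the zinc finger transcription factor PLZF. Zbtb16 (ENSMUSG00000066687.5; chromosome 9, 48654297 to 48836222, minus strand) stood at 15.99, 14.7 and 16.1 in wild types on vehicle, 18.1, 14.2 and 21.8 in mutants on vehicle, 24.8, 20.0, 25.9, 20.4 and 19.2 in wild types on TAK-418, and 24.7, 23.7 and 16.5 in mutants on TAK-418. It varied most among the 9 genes, with a coefficient of variation of 20.2% over the 14 libraries against 6.39% for Hsd11b1, the least variable. The wild-type TAK-418 libraries all lay above the wild-type vehicle libraries. The level of Zbtb16 moved with the length at which its most abundant transcript was assembled. In 5 libraries (wild-type TAK-418 replicates 1 and 3, mutant TAK-418 replicates 1 and 2 and mutant vehicle replicate 3) it was 7242 to 7442 bases long, and these held the 5 highest levels, 21.8 to 25.9. In the other 9 libraries it was 2315 to 2399 bases long, and the level was 14.2 to 20.4. No wild-type vehicle library had the long form. Lengths varied less for the other 8 genes, from 1349 to 1833 bases for Cdkn1a and from 3283 to 3351 bases for Fkbp5.

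Cdkn1a and Pdk4 were the lowest in level. Cdkn1a encodes p21, an inhibitor of cyclin-dependent kinases that is also a p53 target. Cdkn1a (ENSMUSG00000023067.14; chromosome 17, 29090976 to 29100727, plus strand) stood at 7.30, 7.54 and 8.19 in wild types on vehicle, 7.08, 6.33 and 7.84 in mutants on vehicle, 9.05, 7.25, 8.95, 7.30 and 8.14 in wild types on TAK-418, and 7.77, 7.44 and 7.21 in mutants on TAK-418. Pdk4 encodes a kinase that shuts down the pyruvate dehydrogenase complex when fatty acids are burned. Pdk4 (ENSMUSG00000019577.6; chromosome 6, 5483351 to 5496309, minus strand) stood at 3.36, 4.54 and 3.99 in wild types on vehicle, 4.15, 3.21 and 3.56 in mutants on vehicle, 3.83, 3.12, 3.10, 3.27 and 3.26 in wild types on TAK-418, and 3.04, 3.36 and 3.25 in mutants on TAK-418. Both genes overlapped between all groups compared.

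In wild-type vehicle libraries the order of mean levels was Nr3c2 (56.2), Tsc22d3 (55.3), Sgk1 (45.0), Hsd11b1 (31.5), Fkbp5 (26.3), Nr3c1 (18.7), Zbtb16 (15.6), Cdkn1a (7.68) and Pdk4 (3.96). The ranges of Nr3c2 and Tsc22d3, of Tsc22d3 and Sgk1, and of Hsd11b1 and Fkbp5 overlapped, while each other pair of neighbours was apart. Nr3c1 and Zbtb16 stand in the reverse order in the authors' deposited table of mutant vehicle over wild-type vehicle, at 14.7 and 15.5 FPKM in wild types. Nr3c2 exceeded 89.0% and Pdk4 34.0% of the 16337 genes with a value in that group.

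**Figure D1:**
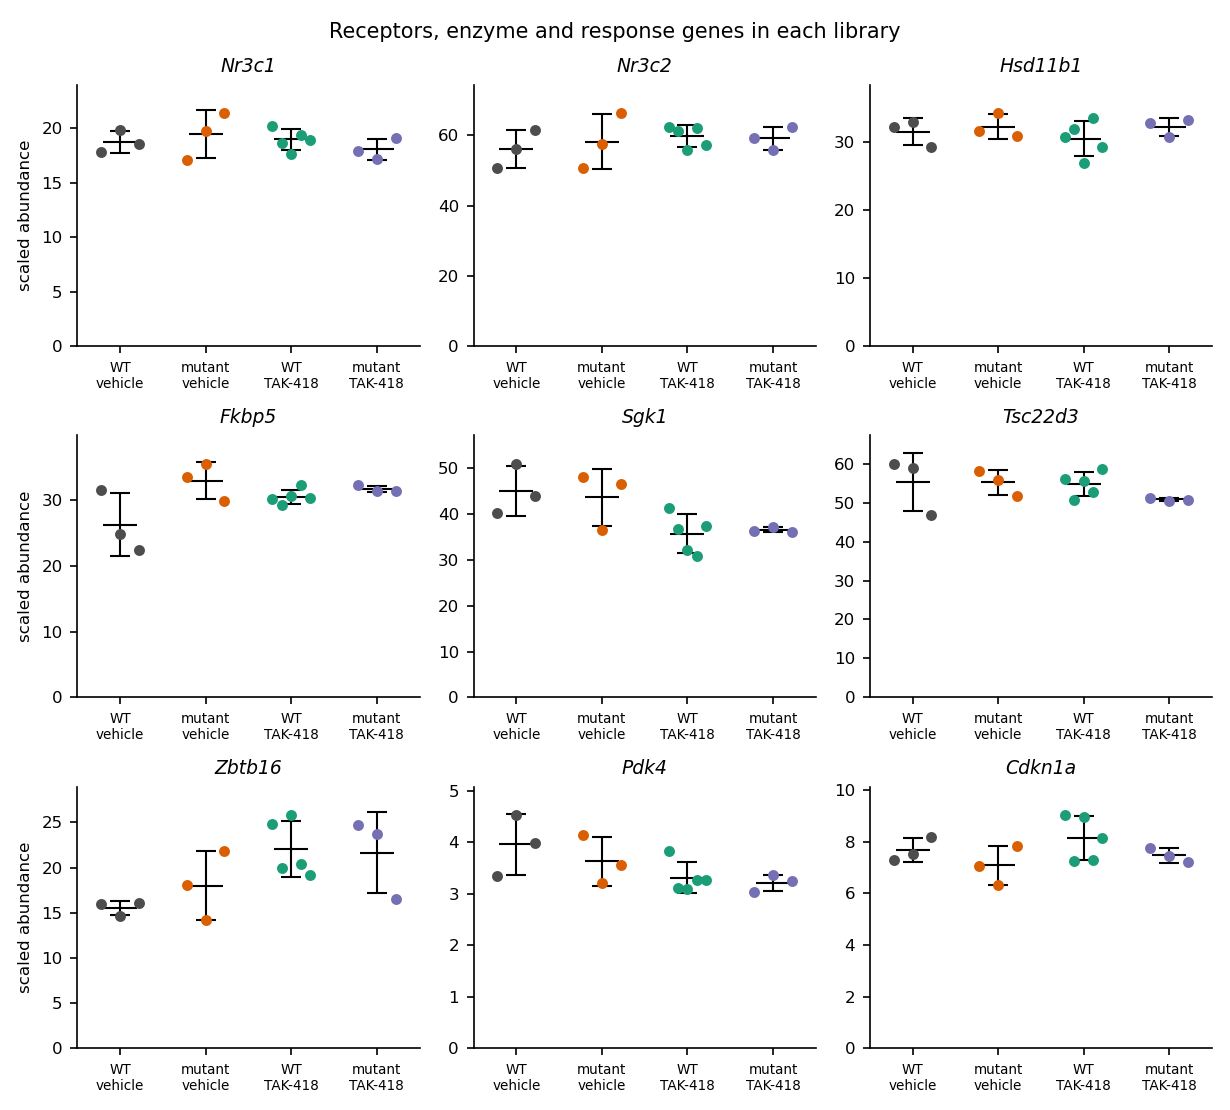
Scaled abundance (y axis, from 0) of each of the 9 genes in each library, by group (x axis; 3, 3, 5 and 3 libraries). Points are libraries, and the bar and whiskers are the mean ± SD of the group. Wild-type vehicle libraries span 22.4 to 31.6 for Fkbp5, and the wild-type TAK-418 libraries of Zbtb16, 19.2 to 25.9, lie above the wild-type vehicle libraries, 14.7 to 16.1.

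The genotype effect under vehicle compared mutant with wild-type vehicle libraries. Fkbp5 averaged 33.0 ± 2.85 (SD, n = 3) in mutants and 26.3 ± 4.78 (SD, n = 3) in wild types. The difference was 0.33 ± 0.10 (SE) on the log2 scale, with a 95% interval of 0.11 to 0.55, an unadjusted limma p of 0.0066 and an adjusted p of 0.693 over all genes. Under limma 0 of the 9 genes passed an adjusted p of 0.05, where 0% of all genes did. At an unadjusted p under 0.05 the count was 1 of 9 genes, against 5.45% of all genes. The 2 groups overlapped for all 9 genes, whereas among all genes 4.4% were higher and 4.5% lower without overlap. Without wild-type vehicle replicate 3 the difference of Fkbp5 was 0.22, and without replicate 1 it was 0.47. The other 8 genes differed by -0.11 (Cdkn1a) to 0.18 (Zbtb16), and the median of the 9 was 0.03 against 0.00 over all genes.

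Immediate early genes, which follow recent neuronal activity, were compared beside it. All 6 of that list had lower values in mutant vehicle libraries, 3 of them with an unadjusted limma p under 0.05 and none with an adjusted p under 0.05, and their median difference was -0.43. Their summed level ranged from 99.5 to 176 in wild-type vehicle and from 78.7 to 112 in mutant vehicle libraries, and Junb was listed at 0 in 7 of the 14 libraries. The 6 choroid plexus markers all had higher mean log2 values in mutant vehicle libraries, at a median difference of 0.61, with none past an unadjusted p of 0.05 and sums of 20.2 to 6459 against 44.0 to 5024. The mean level of Ttr itself was 2140 in wild-type vehicle and 1942 in mutant vehicle libraries. Otx2 was listed at 0 in 8 of the 14 libraries, Aqp1 in 6 and Clic6 in 4. All 6 oligodendrocyte and myelin markers were lower in mutant vehicle libraries, at a median of -0.13. All 5 hippocampal excitatory neuron markers were higher, at a median of 0.05. Of 5 astrocyte markers 3 were higher, of 5 microglia markers 2, of 6 endothelial and mural markers 3 and of 4 thalamus and habenula markers 1. In these lists 1 microglia and 1 thalamus and habenula marker passed an unadjusted limma p of 0.05, both lower. The part of all these markers in the difference of Fkbp5 was not tested. Without the 4 libraries high in Ttr the difference was 0.33. That setting leaves mutant vehicle replicate 2 alone in its group, and this lone library is assumed to vary like the other groups.

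The drug effect in wild types compared wild-type TAK-418 with wild-type vehicle libraries, and held 3 of the 4 differences of these genes with an unadjusted limma p under 0.05. That is 3 of 9 genes, against 8.44% of all genes, and 0 of 9 passed an adjusted p of 0.05, where 0.00604% of all genes did. Zbtb16 averaged 22.1 ± 3.05 (SD, n = 5) with TAK-418 and 15.6 ± 0.783 (SD, n = 3) with vehicle. It differed by 0.47 ± 0.15 (SE), with a 95% interval of 0.13 to 0.81, an unadjusted limma p of 0.0104 and an adjusted p of 0.436. It was the 1 gene of 9 whose groups did not overlap, on the higher side, as for 3.93% of all genes, and none did on the lower side, against 2.4%. The authors' deposited tables, none of which compares these 2 groups, gave Zbtb16 18.9 and 19.0 FPKM with TAK-418 and 15.5 and 15.6 with vehicle. In these FPKM the 2 groups lay closer together than in scaled abundance (22.1 and 15.6). In wild-type vehicle the authors' FPKM was 0.995 of the scaled abundance for Zbtb16, against 0.680 to 0.786 for the rest of the 9 genes.

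Sgk1 averaged 35.7 ± 4.24 (SD, n = 5) with TAK-418 and 45.0 ± 5.54 (SD, n = 3) with vehicle in wild types. It differed by -0.33 ± 0.11 (SE), with a 95% interval of -0.57 to -0.09, an unadjusted limma p of 0.0119 and an adjusted p of 0.446. The groups overlapped, because TAK-418 replicate 1 (41.4) exceeded vehicle replicate 1 (40.2).

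Fkbp5 averaged 30.5 ± 1.10 (SD, n = 5) with TAK-418 in wild types and differed from vehicle by 0.22 ± 0.09 (SE), with a 95% interval of 0.03 to 0.42, an unadjusted limma p of 0.0291 and an adjusted p of 0.521. This value shares its controls with the genotype effect under vehicle, so the 2 are not independent. It rested on wild-type vehicle replicate 3, without which it was 0.12. Without wild-type vehicle replicate 1 it was 0.36, and without the 4 libraries high in Ttr it was 0.12. Pdk4 averaged 3.32 ± 0.296 (SD, n = 5) against 3.96 ± 0.593 (SD, n = 3) and differed by -0.20, a value that was -0.12 without wild-type vehicle replicate 2. The other 5 genes differed by -0.05 to 0.09.

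Of the 5 wild-type TAK-418 libraries, replicate 3 was the one with values on whole steps as often as in the other groups. With it as the only treated wild type, assumed to vary like the other groups, the differences were 0.70 for Zbtb16, -0.47 for Sgk1, 0.23 for Fkbp5 and -0.27 for Pdk4, so that each kept its sign. That library is one of those with the long assembly of Zbtb16, which no wild-type vehicle library had. Without the 5 libraries with the long assembly, an alternative chosen after seeing the data, Zbtb16 differed by 0.34. Its level was 19.2 to 20.4 in 3 TAK-418 libraries and 14.7 to 16.1 in 3 vehicle libraries. Those 3 TAK-418 libraries, replicates 2, 4 and 5, are all among the 4 with fewer values on whole steps, and no wild-type vehicle library is. In that setting TAK-418 and this difference between libraries cannot be told apart. Without the libraries high in Ttr the differences of Zbtb16 and Sgk1 were 0.49 and -0.34.

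Markers of recent neuronal activity and of cell types beside these values were as follows. All 6 immediate early genes were lower in wild-type TAK-418 than in wild-type vehicle libraries, 4 of them with an unadjusted limma p under 0.05, at a median of -0.49, and their sums ranged from 90.9 to 117 with TAK-418. All 6 choroid plexus markers also had lower mean log2 values, at a median of -1.05, with none past an unadjusted p of 0.05. Their sums were 15.9 to 43.3 with TAK-418, and 20.2, 43.4 and 6459 with vehicle, so that 1 vehicle library stood apart. Of 6 oligodendrocyte and myelin markers 5 were lower, 1 with an unadjusted limma p under 0.05, at a median of -0.15. The oligodendrocyte sums were 3191 to 4341 with TAK-418 and 3421 to 5280 with vehicle. Of 5 hippocampal excitatory neuron markers 3 were higher and 2 lower, at a median of 0.09. At an unadjusted limma p under 0.05, 2 of these were higher and 1 lower. Of 5 microglia markers 4 were lower, 1 past that threshold. Of 6 endothelial and mural markers 5 were lower, with 1 higher and 1 lower past it. Of 5 astrocyte markers 4 were higher, and the lower one, Aldoc, was listed at 0 in 1 of the wild-type TAK-418 libraries. Of 4 thalamus and habenula markers 3 were lower. None of the astrocyte, thalamus and habenula markers was past that threshold. Among all genes 8.44% passed it. None of these markers passed an adjusted p of 0.05, and their part in the differences of Sgk1, Zbtb16 and Fkbp5 was not tested. In whole tissue, fewer cells of a type and less RNA per cell cannot be told apart.

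The drug effect in mutants compared mutant TAK-418 with mutant vehicle libraries. None of the 9 genes had an unadjusted limma p under 0.05, against 4.39% of all genes, and 0 passed an adjusted p of 0.05, where 0.00604% of all genes did. Tsc22d3 averaged 50.8 ± 0.404 (SD, n = 3) with TAK-418 and 55.2 ± 3.16 (SD, n = 3) with vehicle. It was the 1 gene whose groups did not overlap, on the lower side, as for 3.65% of all genes, and none did on the higher side, against 4.54%. Its difference of -0.12 had an unadjusted limma p of 0.195, and it was 0.053 when the highest transcript stood for the gene. Sgk1 averaged 36.6 ± 0.563 (SD, n = 3) with TAK-418 and 43.7 ± 6.20 (SD, n = 3) with vehicle, and its difference of -0.24 had an unadjusted limma p of 0.0755. That value was 0.00093 without the 4 libraries high in Ttr, where mutant vehicle replicate 2 alone stood for its group. Zbtb16 differed by 0.25, with a 95% interval of -0.12 to 0.63, and by 0.04 without the 5 libraries with its long assembly, where mutant TAK-418 replicate 3 stood alone for its group.

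The genotype effect under TAK-418 compared mutant with wild-type libraries, both treated. Again none of the 9 genes had an unadjusted limma p under 0.05, against 4.92% of all genes, and 0 passed an adjusted p of 0.05, where 0.0121% of all genes did. Each of the 9 overlapped between the groups, whereas 2.2% of all genes were higher and 2.37% lower without overlap, and the differences ran from -0.11 (Cdkn1a) to 0.08 (Hsd11b1). Fkbp5 differed by 0.05, with a 95% interval of -0.14 to 0.25.

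The interaction, the drug effect in mutants minus that in wild types, was largest for Fkbp5 among the 9 genes, at -0.28 with a 95% interval of -0.57 to 0.02. Its unadjusted limma p was 0.0631 and its adjusted p 0.977, and without wild-type vehicle replicate 3 it was -0.17. Of the 9 genes 0 had an unadjusted p under 0.05, against 4.44% of all genes, and 0 an adjusted p under 0.05, where 0.00604% of all genes did. The data therefore did not show that the drug acted differently on any of these genes in the 2 genotypes.

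**Figure D2:**
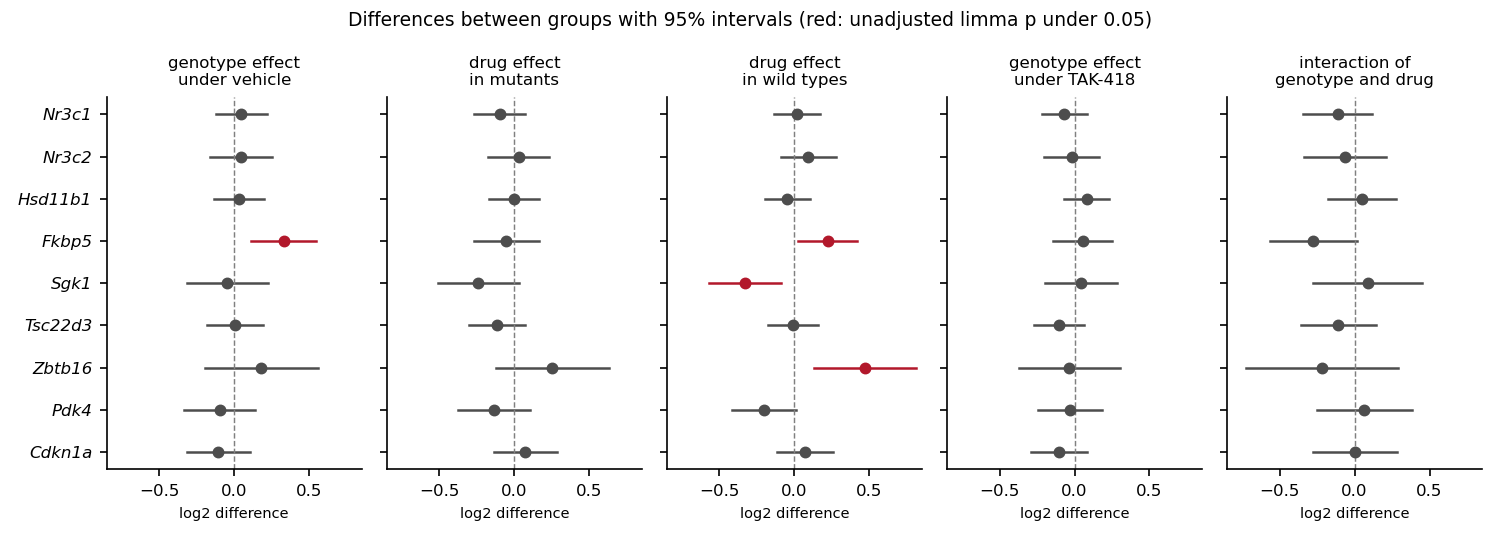
Differences on the log2 scale (x axis) of the 9 genes (y axis) in the 5 comparisons, with 95% intervals from limma. Red marks an unadjusted p under 0.05, which is the case for Fkbp5 under vehicle (0.33) and for Zbtb16 (0.47), Sgk1 (-0.33) and Fkbp5 (0.22) with TAK-418 in wild types.

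The authors' deposited table of mutant vehicle over wild-type vehicle gave Fkbp5 as 20.2 and 25.9 FPKM (fragments per kilobase and per M mapped), with a log2 fold change of 0.36, p of 0.01895 and q of 0.627. In the authors' deposited tables the 9 genes matched 10 loci of 81411, Hsd11b1 having a second locus under 1 FPKM. In none of the authors' deposited tables did a locus of the 9 genes reach a q of 0.05. Of the loci tested there (32236 to 33991 of the 81411) 0.224% did so in mutant vehicle over wild-type vehicle, 0.324% in mutant TAK-418 over wild-type vehicle, 0.611% in mutant vehicle over wild-type TAK-418 and 0.218% in mutant TAK-418 over wild-type TAK-418. At an unadjusted p under 0.05 the authors' deposited tables held, in that order, 1, 2, 2 and 0 of the 9 main loci, against 4.32%, 4.49%, 6.48% and 4.1% of the loci tested. In the authors' deposited table of mutant TAK-418 over wild-type vehicle, which changes genotype and drug together, Sgk1 went from 34.5 to 27.5 FPKM, with p of 0.00355 and q of 0.236, and Pdk4 from 2.72 to 2.14 FPKM, with p of 0.0361 and q of 0.924. In the authors' deposited table of mutant vehicle over wild-type TAK-418, Sgk1 was 28.6 and 32.8 FPKM, with p of 0.02665, and Cdkn1a was 6.49 and 5.38 FPKM, with p of 0.0226, both at a q of 0.695. These tables hold 1 pooled value per group and no spread between mice.

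Sgk1 was assembled mainly from 2 places. Transcripts of 14 exons began at an upstream first exon (chromosome 10, splice donor at 21882707), and transcripts of 12 exons began at a downstream first exon (splice donor at 21994825). Both were assembled in all 14 libraries. 1 more first exon (splice donor at 21994181) was assembled in wild-type vehicle replicate 3 (1.68) and mutant vehicle replicate 1 (2.00). Its 5′ ends there were at 21993980 and 21993974, with their median 87 bases from the RefSeq start at 21993890. The upstream form received 8.43 to 13.7 of scaled abundance in 11 libraries. It received 35.6, 27.5 and 30.0 in wild-type TAK-418 replicates 1, 4 and 5, where the downstream form had 5.85, 3.44 and 7.34 against 21.4 to 41.5 elsewhere. The share of the upstream form thus ran from 18.7% to 88.9% with a median of 25.8%, while the summed level of Sgk1 in those 3 libraries stayed between 30.9 and 41.4. The 2 forms share 10 introns, which is all but 1 of the downstream form's 11, and 95.4% of its bases, so the division between them rests on a small part of each transcript. In the same 3 libraries the downstream first exon was itself assembled at 745 to 878 bases, against 101 to 113 bases in the other 11, and its 5′ end lay 58 to 191 bases from the RefSeq start at 21993890 in place of 47 to 59 bases from the start at 21994666. All 3 are among the 4 libraries with fewer values on whole steps, and replicate 2, the fourth of them, had 9.21 for the upstream form. A part of the library or of the assembly in this division was not tested.

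The promoter sequences of these starts, from RefSeq on build GRCm38.p6, show where the letters of the receptor's known motif occur, and binding was not measured. The assembled 5′ ends of the upstream form of Sgk1 lay 235 to 405 bases after its nearest RefSeq start, at 21882184. The search used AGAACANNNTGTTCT, the full palindromic glucocorticoid response element, which reads the same on both strands, and its half-site AGAACA on either strand (TGTTCT), which every full element holds 2 times. Capitals mark the matches in the 250 bases before each start, all read 5′ to 3′ on the gene's strand. The regions are chr10:21881934-21882183 for the upstream start of Sgk1, chr10:21993640-21993889 for its middle start, chr10:21994416-21994665 for its downstream start, all on the plus strand, and chr17:28486150-28486399 on the minus strand for Fkbp5. Middle here names only the start at 21993890. Further RefSeq starts of Sgk1 at 21978672, 21985854 and 21992223 had no assembled 5′ end within 300 bases and are not printed.
Sgk1 upstream start: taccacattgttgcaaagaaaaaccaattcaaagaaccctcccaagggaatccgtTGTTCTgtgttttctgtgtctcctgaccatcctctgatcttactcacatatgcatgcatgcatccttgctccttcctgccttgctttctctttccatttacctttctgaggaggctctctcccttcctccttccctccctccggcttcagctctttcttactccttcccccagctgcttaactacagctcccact
Sgk1 middle start: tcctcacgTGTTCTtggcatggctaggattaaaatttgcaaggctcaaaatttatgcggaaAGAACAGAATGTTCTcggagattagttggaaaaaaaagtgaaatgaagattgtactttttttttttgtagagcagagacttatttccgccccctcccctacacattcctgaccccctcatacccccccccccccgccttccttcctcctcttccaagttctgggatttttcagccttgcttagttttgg
Sgk1 downstream start: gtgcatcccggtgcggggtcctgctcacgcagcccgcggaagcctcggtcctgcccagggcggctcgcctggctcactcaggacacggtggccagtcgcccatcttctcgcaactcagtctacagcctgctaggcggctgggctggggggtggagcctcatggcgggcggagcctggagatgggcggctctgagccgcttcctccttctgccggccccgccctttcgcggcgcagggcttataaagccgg
Fkbp5 start: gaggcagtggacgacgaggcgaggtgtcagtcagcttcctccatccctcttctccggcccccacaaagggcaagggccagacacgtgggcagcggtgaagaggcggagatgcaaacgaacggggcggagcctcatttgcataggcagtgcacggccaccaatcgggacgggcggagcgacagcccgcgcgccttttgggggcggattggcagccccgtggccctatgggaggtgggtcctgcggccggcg

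The full element was found at the middle start of Sgk1, beginning 189 bases before it, with a further half-site beginning 242 bases before it. Of 32851 promoter windows of 300 bases (250 before and 50 after the start) only 3, or 0.00913%, held a full element, and the genes were Sgk1, Acnat2 and Gm35041. A half-site was found in 19.0% of all windows. Among the 15 windows of the 7 member genes with an entry, 4 held a half-site. For Sgk1 these were 3 windows, at the upstream and middle starts and at the start at 21992223, which is not printed. The other was the most upstream of 3 windows of Tsc22d3, where it began 185 bases before the start at 140600522 on chromosome X. The windows of Fkbp5, Hsd11b1, Nr3c2, Pdk4 and Cdkn1a held neither. Fkbp5 is known for receptor binding within its introns, outside this window, and a match or its absence here is only a description of these letters.

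Fkbp5 itself used mainly 1 first exon (chromosome 17, minus strand, splice donor at 28485952), which carried 98.3% to 100% of its abundance. Pdk4 (chromosome 6, splice donor at 5496033) and Cdkn1a (chromosome 17, splice donor at 29093861) each had 1 first exon with all of the abundance in each library. Zbtb16 (chromosome 9, splice donor at 48836054) had 86.5% to 100% on its main first exon. Tsc22d3 had 2 forms of 3 exons in all 14 libraries, with splice donors at 140542846 (51.0% to 82.1% of its abundance) and 140542511 (11.1% to 43.1%) on chromosome X. First exons farther upstream were each assembled in 1 to 8 libraries, and the one nearest the start at 140600522, whose window held the half-site, in 2.

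The receptor genes also had more than 1 first exon, which is known for both. Nr3c2 used a first exon with its splice donor at 76900260 on chromosome 8 for 83.2% to 94.7% of its abundance and one with its donor at 76902540 for 5.31% to 16.8%, both in all 14 libraries. Nr3c1 used a first exon with its donor at 39489477 on chromosome 18 in all 14 libraries and one at 39490568 in 11. The first of these carried 3.52, 3.39 and 3.22 in mutant vehicle replicate 3, wild-type TAK-418 replicate 2 and mutant TAK-418 replicate 3, where the second carried 17.5, 15.3 and 13.9, and it carried 12.7 to 18.5 in the other 11 libraries. Hsd11b1 used a downstream first exon (chromosome 1, donor at 193242175) in all 14 libraries, and an upstream one (donor at 193263948) in 11. In mutant vehicle replicate 3 the upstream form had 23.0 and the downstream form 7.82, whereas the downstream form had 20.8 to 34.3 in the other 13. The forms of Nr3c1 share 7 of 8 introns and 98.4% of the bases of the second, and those of Hsd11b1 share all 5 introns of the downstream form. The libraries with the other division came from 3 groups. The summed level of Nr3c1 in them was 21.4, 18.7 and 19.1, and that of Hsd11b1 was 30.8.

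**Figure D3:**
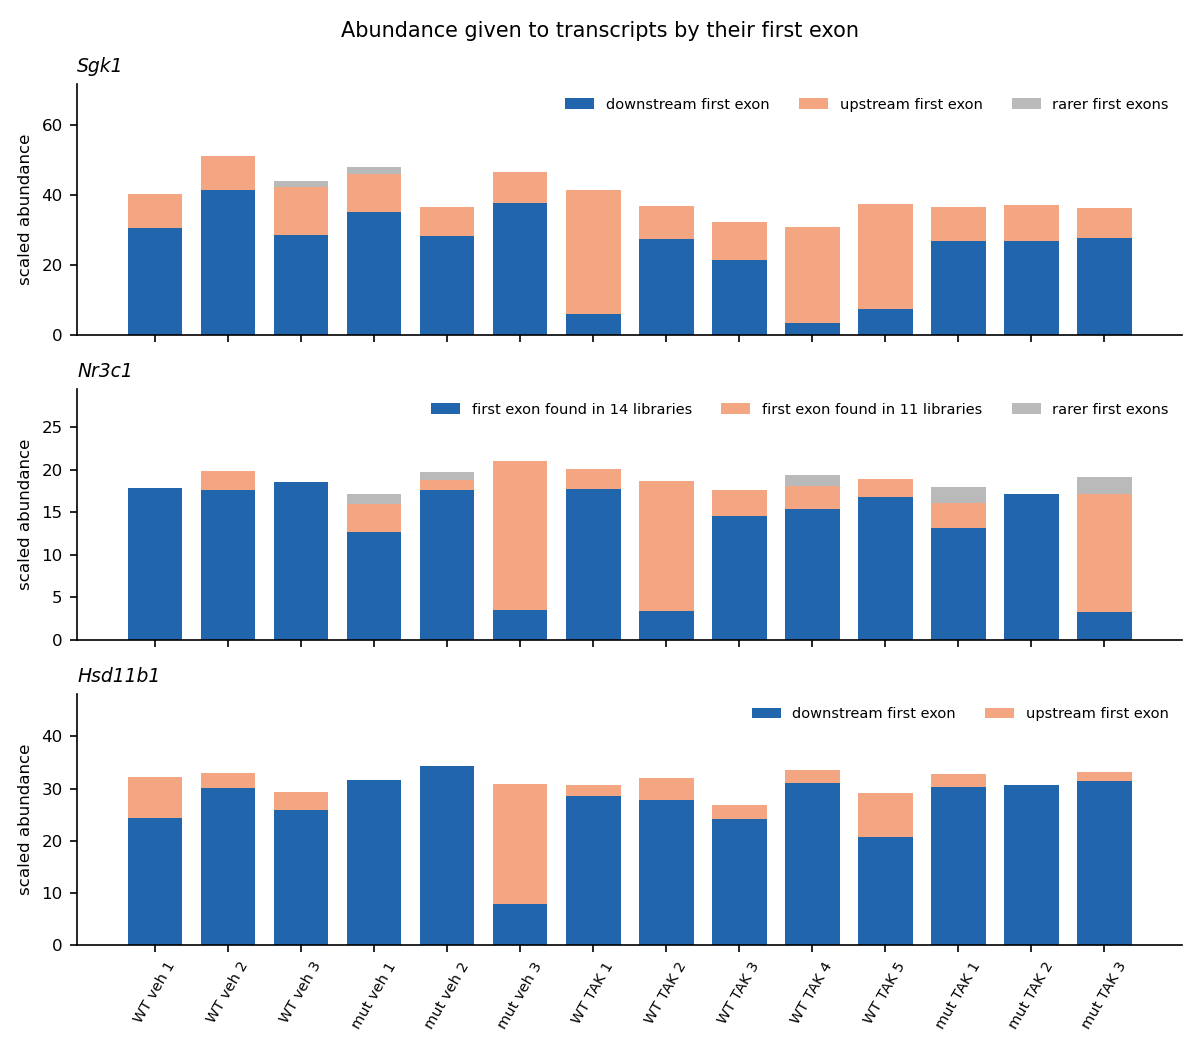
Scaled abundance (y axis) of the multi-exon transcripts of Sgk1, Nr3c1 and Hsd11b1 in each library (x axis), divided by first exon (colours). The upstream form of Sgk1 holds most of the abundance in wild-type TAK-418 replicates 1, 4 and 5, while the height of the bars changes less.

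The other genes of the pathway were read from lists of the receptor's chaperones, further glucocorticoid-induced genes, steroid metabolism, coregulators, p53 targets beside Cdkn1a, and pyruvate dehydrogenase kinases with fatty acid genes beside Pdk4. Under limma 0 genes of any of these 6 lists passed an adjusted p of 0.05 in the 5 comparisons. Of the 21 further induced genes, 1 was higher and 1 lower at an unadjusted p under 0.05 in the genotype effect under vehicle, in the drug effect in mutants and in wild types and in the interaction, and 0 in the genotype effect under TAK-418. Among all genes 5.45%, 4.39%, 8.44%, 4.44% and 4.92% passed that threshold in these comparisons, in that order. The median differences of the list were -0.01 (genotype under vehicle), -0.05 (drug in mutants), 0.00 (drug in wild types), -0.05 (genotype under TAK-418) and -0.02 (interaction), against medians of all genes within 0.01 of 0.

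Dusp1, a phosphatase of MAP kinases, averaged 8.59 ± 0.374 (SD, n = 3) with vehicle and 7.70 ± 0.903 (SD, n = 5) with TAK-418 in wild types, and 6.41 ± 0.0879 (SD, n = 3) with vehicle and 8.75 ± 2.78 (SD, n = 3) with TAK-418 in mutants. It differed by -0.38 for the genotype under vehicle, 0.36 for the drug in mutants and 0.51 for the interaction, with unadjusted limma p of 0.0347, 0.04 and 0.0328 and adjusted p of 0.867, 1.00 and 0.977. In the same 3 comparisons the 6 immediate early genes had median differences of -0.43, 0.13 and 0.49, with 0, 5 and 6 of them higher. At an unadjusted limma p under 0.05, 3 were lower in the first comparison, 0 passed in the second and 3 were higher in the third. Whether Dusp1 varied with them was not tested. Lcn2, which encodes lipocalin 2, a secreted protein of inflamed tissue, was near the lowest values measured, at 0.412 ± 0.415 (SD, n = 3) in wild-type vehicle and 1.22 ± 0.682 (SD, n = 3) in mutant vehicle libraries, and was listed at 0 in 3 of the 14 libraries. Its differences were 0.69 for the genotype under vehicle and -0.76 for the drug in mutants.

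In the drug effect in wild types, Hif3a differed by 0.31 (unadjusted limma p of 0.0199, adjusted p of 0.481) and Map3k6 by -0.66 (unadjusted limma p of 0.0274, adjusted p of 0.519). Tgm2 differed by -0.38 in the interaction (unadjusted limma p of 0.0496, adjusted p of 0.977). Hif3a, an oxygen-responsive transcription factor, averaged 3.09 ± 0.153 (SD, n = 5) with TAK-418 and 2.34 ± 0.341 (SD, n = 3) with vehicle. Per1 and Klf9 had an unadjusted p above 0.05 in each comparison. Per1, a circadian gene, averaged 21.2 ± 1.81 (SD, n = 3) in wild-type vehicle and 18.6 ± 2.87 (SD, n = 3) in mutant vehicle libraries. Klf9, a transcription factor, averaged 91.2 ± 5.84 (SD, n = 3) and 94.1 ± 6.45 (SD, n = 3) in the same groups.

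Of the 10 chaperones and cochaperones, which hold the unbound receptor ready for hormone, Ppid, which encodes cyclophilin 40, differed by -0.33 with TAK-418 in wild types (unadjusted limma p of 0.0134, adjusted p of 0.452). It was the 1 of the 10 with an unadjusted p under 0.05 in any comparison, and the medians of the list lay between -0.0091 and -0.0028. Fkbp4, whose product competes with that of Fkbp5 for the receptor complex, averaged 67.4 ± 1.61 (SD, n = 3) in wild-type vehicle and 68.2 ± 1.74 (SD, n = 3) in mutant vehicle libraries. The ratio of Fkbp5 to Fkbp4 was 0.390 ± 0.0737 (SD, n = 3) with vehicle and 0.447 ± 0.0327 (SD, n = 5) with TAK-418 in wild types, and 0.483 ± 0.0297 (SD, n = 3) with vehicle and 0.475 ± 0.0107 (SD, n = 3) with TAK-418 in mutants. These ratios followed Fkbp5, since Fkbp4 itself lay between 63.9 and 70.9 in all libraries.

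Of the 8 genes of steroid metabolism and supply 6 had values enough to be tested, and 5 of these were higher and 1 lower in the genotype effect under vehicle, at a median of 0.11. Cyp7b1, an oxysterol and steroid 7α-hydroxylase, differed by 0.22 in the genotype effect under vehicle (unadjusted limma p of 0.0109, adjusted p of 0.724), from 19.1 ± 1.54 (SD, n = 3) in wild types to 22.4 ± 1.26 (SD, n = 3) in mutants. Of the 9 coregulators, the corepressor gene Ncor1 differed by -0.55 with TAK-418 in wild types (unadjusted limma p of 0.0396) and by 0.54 in the genotype effect under TAK-418 (unadjusted limma p of 0.0423). Ncor1 ranged widely within groups, from 45.8 to 79.8 in wild-type vehicle and from 41.1 to 79.9 in mutant vehicle libraries. Of the 9 coregulators 8 were higher and 1 lower with the drug in mutants, at a median of 0.04, none of them past an unadjusted p of 0.05. Among the 9 p53 targets 3 were higher and 6 lower with TAK-418 in wild types, at a median of -0.07, and Gadd45a, a p53 target of growth arrest, differed by -0.28 (unadjusted limma p of 0.0140, adjusted p of 0.459).

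Pdk2, the kinase of the same family as Pdk4 with the higher level here, had the smallest unadjusted p of the 6 lists. Its list of 8 genes held 4 higher and 4 lower in the drug effect in mutants and 1 higher and 7 lower in the genotype effect under TAK-418. It averaged 56.4 ± 4.41 (SD, n = 3) in mutants with vehicle and 29.7 ± 2.25 (SD, n = 3) in those with TAK-418, and differed by -0.90 (unadjusted limma p of 0.0020, adjusted p of 0.568). The 3 mutant TAK-418 libraries (27.2, 31.6 and 30.3) lay below the mutant vehicle libraries (59.5, 51.3 and 58.3). Among the wild-type TAK-418 libraries 3 stood at 32.7, 34.3 and 31.9 and 2 at 57.9 and 58.8. The 3 lower values lay just above the range of the mutant TAK-418 libraries, and the 2 higher ones within the range of the vehicle libraries (45.6 to 59.5). In the genotype effect under TAK-418 it differed by -0.47, with an unadjusted limma p of 0.0402 and an adjusted p of 0.926.

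**Figure D4:**
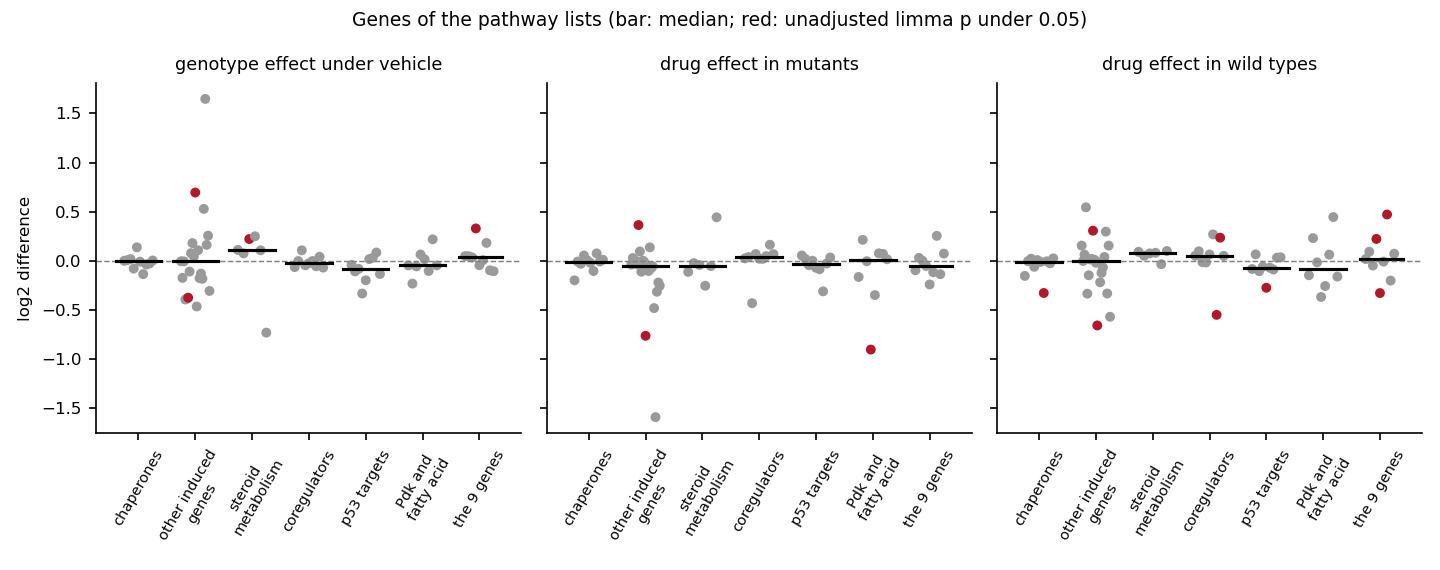
Differences on the log2 scale (y axis) of the genes of the 6 pathway lists and of the 9 genes (x axis) in 3 comparisons. Points are genes, black bars are medians, and red marks an unadjusted limma p under 0.05. The medians lie near 0, and red points fall on both sides, as for Dusp1 (-0.38) and Fkbp5 (0.33) under vehicle.

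The genes that varied most like 3 of the response genes over the 14 libraries were found among the 13272 other genes with a value in each library, by Pearson's r of log2 values. These values are descriptions over libraries that share groups and preparation. For Fkbp5 they were Flrt3 (0.90), Smim3 (0.89) and Nanp (0.87). For Sgk1 they were Gm15246 (0.87), Cyp27a1 (0.87) and Pdk4 (0.86). For Tsc22d3 they were Trp53rkb (0.86), Lactb (0.85) and Klf15 (0.85).

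Among the genes just named, Pdk4 and Klf15 are themselves known to be induced by glucocorticoids, and nothing is said here of the others. Each was among the top 3 of 13272 genes over 14 libraries. How high r would reach in such a search without shared regulation was not tested. The wild-type vehicle replicate with the highest Sgk1 (51.1) also had the highest Pdk4 (4.54), and wild-type vehicle replicate 3 had the lowest Tsc22d3 (46.9) and the lowest Klf15 (11.2). The response genes did not vary as one block. Between Fkbp5 and Sgk1 r was -0.46, between Fkbp5 and Tsc22d3 0.32, and between Sgk1 and Tsc22d3 0.22, while the 2 receptor genes had an r of 0.71.

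**Figure D5:**
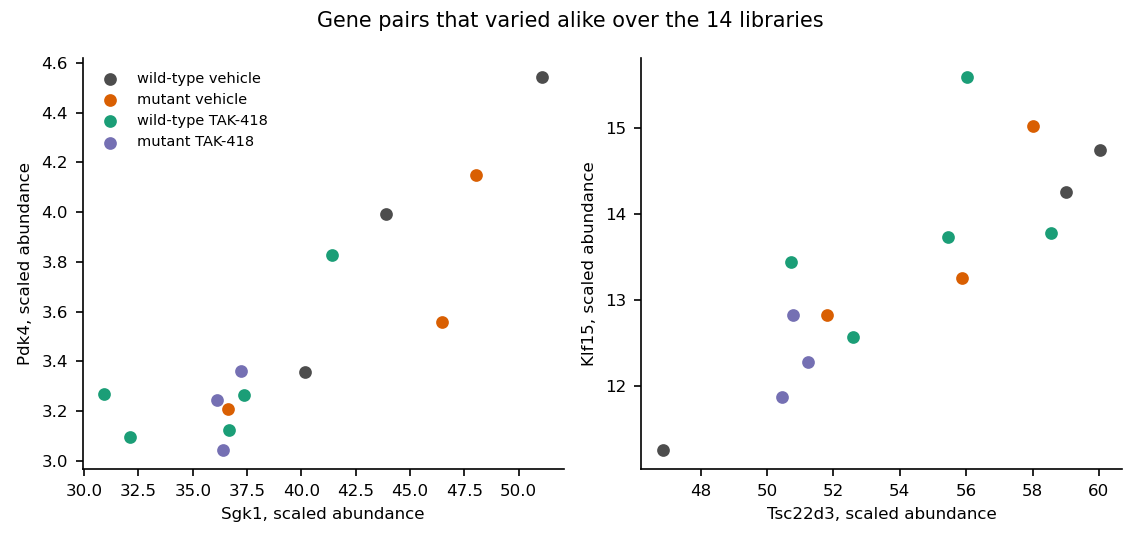
Scaled abundance of Pdk4 against Sgk1 and of Klf15 against Tsc22d3 in the 14 libraries, coloured by group; neither axis starts at 0. Libraries high in the first gene are high in the second, from 30.9 to 51.1 for Sgk1 and from 46.9 to 60.04 for Tsc22d3.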

How the data were processed

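RNA-seq of hippocampus gave 14 libraries. No label states that each came from a separate mouse, so p-values measure the spread between these samples, and replicate numbers were given here in accession order and pair nothing. Per the submitters' processing notes, reads were checked with FastQC and aligned to mm10 with TopHat2 2.1.0. Per the file headers, transcripts were assembled with CLASS 2.1.7, each with a deposited abundance, here treated as a score because no source names its unit. The authors' deposited tables give per locus 2 FPKM values pooled over a group, their log2 fold change, a p-value and a q-value. The group order of the tables was checked against the per-library values and matched their names in all 4.

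Transcripts were assigned to GENCODE M21 genes (the same assembly as mm10) by a shared intron, or, with 1 exon, by 50% overlap. Abundances were summed per gene, scaled by the median of ratios over 13273 genes and tested as log2(value + 0.9) with limma 3.58.1 (R 4.3.3, trended, 1 fit of 4 groups), for genes with a value in 3 or more libraries, adjusted by Benjamini-Hochberg at 0.05. Fold changes on this scale understate low genes. Python 3.11.15, numpy 2.4.6, pandas 2.3.3 and matplotlib 3.10.9 did the rest, and the fit was tested on simulated data.

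The 9 genes and the lists were chosen with earlier results of these data known. Full statistics are given for one of the 9 genes with an unadjusted p under 0.05, other genes are given by range, and from each list at most 4 genes under 0.05 per comparison are named, except 1 that is not reported here. Sgk1, Tsc22d3 and Zbtb16 in mutants, Pdk4 in wild types, the interaction of Fkbp5, and the list genes Fkbp4, Per1 and Klf9 were named after their values were seen. For Fkbp5, Sgk1 and Tsc22d3 the 3 genes with the highest r are named. Abundance times length of 1-exon transcripts fell on whole steps, within 0.1 of a step, and the reciprocal of that step gave the relative depth.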

Additional observations from a re-analysis of the deposited data

Results flagged for a closer look

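In the 5 wild-type TAK-418 libraries, the levels of the 9 genes and 5 first-exon shares were searched for single libraries lying apart, 14 measures in all. A measure counted when the gap of the highest or lowest library to its neighbour was above 0.71 of the whole range, Dixon's critical value, which chance passes in about 1 of 20 groups. The other groups hold 3 libraries and were not screened. Pdk4 had 1 such value, 3.83 in replicate 1, the library with the highest inferred depth, against 3.27 in the next. The first exon of Nr3c1 found in all libraries held 18.2% of its abundance in replicate 2, against 79.1% or more in the others, and the second first exon held 81.8% there, which is the same observation seen from the other side. The upstream first exon of Hsd11b1 held 29.0% in replicate 5, against 12.9% in the next.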

How the results depend on the processing

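None of the 9 genes passed an adjusted p of 0.05 in any of the 5 comparisons under any of the alternatives fitted, 129 counts in all. Of 1161 values of all differences of the 9 genes under these alternatives, 87 had another sign than in the main fit. Of 234 values of 9 of the differences named above, 2 had another sign. Tsc22d3 with the drug in mutants was 0.053 with the highest transcript per gene, and Sgk1 with the drug in mutants was 0.00093 without the libraries high in Ttr. The causes were not tested. The number of all genes called was 0 (genotype under vehicle), 1 (drug in mutants), 1 (drug in wild types), 2 (genotype under TAK-418) and 1 (interaction), and in that order these counts became 1, 2, 4 and 4 with a pseudocount of 0.09 (interaction unchanged), 2 (drug in mutants) and 0 (drug in wild types) with a pseudocount of 9, 0 (drug in wild types) and 1 (genotype under TAK-418) without scaling, and 1, 2, 2, 5 and 2 with genes valued in 1 library. They were 0 for the last 4 comparisons with multi-exon transcripts only, 1 (genotype under vehicle), 3 (drug in wild types) and 7 (genotype under TAK-418) with the highest transcript, 0 (drug in wild types) with sex as a covariate, 1, 2, 2, 4 and 3 without the trend, and 12, 17 and 7 for the first 3 with the contrast's libraries alone. Without the libraries high in Ttr they were 38, 41, 9, 7 and 30. Without the 4 libraries under 98% on whole steps, an alternative chosen after seeing the data, they were 8, 5, 62, 63 and 52, and without the 5 libraries with the long assembly of Zbtb16, also chosen after seeing the data, 9, 51, 21, 71 and 42. These settings leave a group with 1 library, assumed to vary like the others. Leaving out each library in turn gave 0 to 5, 1 to 8, 0 to 2, 1 to 7 and 0 to 5. No paired analysis was possible because the labels carry no replicate numbers and those used here only name libraries.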
